A study of Mus musculus and Rattus norvegicus with 96 samples.

Results

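The comparison is between fresh-fixed and frozen-then-fixed mouse liver. FFPE portions went into formalin at collection, whereas FR>FFPE portions were flash frozen, stored, divided on dry ice and only then placed in formalin. All 24 libraries labelled with either preparation were taken, of 96 samples in the series, and they form 12 pairs that share a mouse name. The mice were young adult B6C3F1 males, a first-generation hybrid strain. Of these, 6 were vehicle controls on water (Con: 8A, 8C, 8D, 21C, 82B and 90C) and 6 had received phenobarbital (PB: 18B, 18D, 20B, 20D, 75C and 80B) at 600 ppm in drinking water for 7 days. Both preparations spent 18 to 24 h in buffered formalin (10%), were embedded in paraffin and were extracted with the same FFPE kit. They differ by design in the freezing, storage and division on dry ice before fixation, and also in sequencing lane, as given below. Each liver was represented by pieces of 3 lobes, and both portions of a pair were different pieces of tissue. Total RNA was sequenced after removal of ribosomal RNA with capture probes.

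Formaldehyde adds groups to the bases of RNA and joins RNA to protein, and the RNA that is recovered after embedding is short and modified. The fixative enters a piece of tissue from its surface. Freezing stops metabolism, and ice crystals damage membranes. Liver is made mainly of hepatocytes, which secrete albumin, fibrinogen and major urinary proteins, with sinusoidal endothelium, Kupffer cells (the resident macrophages), stellate cells and the vessels and ducts of the portal tracts between them. Hepatocyte markers were high in every library, with Alb at 11320 to 46356 CPM and Hnf4a at 608 to 1071 CPM. In bulk RNA, fewer cells of a type and less RNA per cell cannot be told apart.

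Small nucleolar RNAs (snoRNAs) had the highest share of genes called higher among RNA classes with more than 2 genes tested, and the sequences of those that the results turn on are given here. Most snoRNAs are cut from introns of a host gene. Those with an H box and an ACA box guide pseudouridylation of ribosomal RNA, and those with a C box and a D box guide methylation of its ribose. The first 6 are the H/ACA snoRNAs with the largest rises among those higher in every mouse, with capitals marking the last ACA in their final 8 bases. Sequences are from GENCODE transcripts on GRCm38, 5′ to 3′.
Snora26, chr5:74093530-74093650, plus strand: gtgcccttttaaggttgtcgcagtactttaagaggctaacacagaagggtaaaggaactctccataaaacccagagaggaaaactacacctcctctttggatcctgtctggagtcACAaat
Snora16a, chr4:132309465-132309600, plus strand: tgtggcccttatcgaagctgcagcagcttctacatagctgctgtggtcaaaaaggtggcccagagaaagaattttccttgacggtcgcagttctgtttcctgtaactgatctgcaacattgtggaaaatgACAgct
Snora64, chr17:24720772-24720905, plus strand: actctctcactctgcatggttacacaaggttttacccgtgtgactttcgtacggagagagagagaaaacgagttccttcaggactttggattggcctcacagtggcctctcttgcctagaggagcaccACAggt
Snora28, chr12:111540941-111541067, plus strand: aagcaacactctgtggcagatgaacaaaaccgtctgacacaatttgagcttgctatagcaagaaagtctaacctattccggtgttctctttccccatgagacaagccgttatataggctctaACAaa
Snora21, chr11:97781639-97781775, minus strand: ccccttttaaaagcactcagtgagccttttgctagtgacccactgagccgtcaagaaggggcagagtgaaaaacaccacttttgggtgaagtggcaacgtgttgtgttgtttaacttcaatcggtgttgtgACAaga
Snora70, chrX:74272484-74272620, plus strand: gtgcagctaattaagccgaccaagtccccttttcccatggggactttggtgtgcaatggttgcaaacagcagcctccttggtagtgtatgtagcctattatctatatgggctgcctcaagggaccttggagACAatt

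The C/D snoRNA with the largest rise was Snord104, in which capitals mark the letters TGATGA (the C box with its next bases) and CTGA (the D box).
Snord104, chr11:106500993-106501062, plus strand: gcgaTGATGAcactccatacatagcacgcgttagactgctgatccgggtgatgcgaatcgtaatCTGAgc

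An ACA in the last 8 bases, on the transcript's own strand, was present in 18 of the 20 H/ACA snoRNAs tested and in 0 of the 8 C/D snoRNAs tested. Among GENCODE transcripts of 100 to 200 bases, 21.2% of 4796 held one. Of the 18, 13 were higher in FFPE. Both TGATGA and CTGA were found in 5 of the 8 C/D snoRNAs. The H/ACA transcripts were 121 to 196 bases long and the C/D transcripts 70 to 238.

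A smaller share of the reads, whose totals were inferred from the authors' log2 CPM values, fell on genes in FFPE than in FR>FFPE. It was 21.4% to 27.5% (median 25.5%) in FFPE and 31.7% to 40.5% (median 37.3%) in FR>FFPE, and the groups did not overlap. The difference was -12.1 ± 2.47 percentage points (SD, n = 12 pairs), with FFPE lower in 12 of 12 mice (two-sided exact permutation test over pairs, p = 0.000488, the smallest this design allows). The total count on genes was 4952796 to 6760426 (median 6041010) in FFPE and 5534973 to 10681771 (median 9797054) in FR>FFPE, where mouse 21C had by far the lowest. Fewer genes were detected in FFPE in 12 of 12 mice, 13888 to 14859 against 14421 to 15309. Sequencing lanes were read from the L numbers in the library titles. No label names a lane, and whether these numbers denote lanes was not checked. On that reading, preparations never shared a lane. FFPE libraries ran in lanes 1 and 2, and FR>FFPE libraries in lane 3 (Con) and lane 4 (PB), so within these 24 libraries lane and preparation cannot be told apart.

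After TMM scaling, which sets libraries to the level of most of their genes, 78 of the 13370 genes tested (0.583%) were called differentially expressed (DEGs), meaning at least 2-fold apart with an adjusted p below 0.05. Of these, 54 were higher in FFPE (0.404% of genes tested) and 24 lower (0.18%). All adjusted p values for mouse liver are from edgeR's quasi-likelihood test with the mouse as a block and Benjamini-Hochberg adjustment. At the adjusted p alone 5155 genes (38.6%) passed, of which 2532 (18.9% of genes tested) were higher and 2623 (19.6%) lower, and 86.1% of them changed by less than 0.5 on the log2 scale. The difference between preparations was broad and mostly small, with few large changes. Scaling to the total on genes gave 73 DEGs (0.546%, 48 higher and 25 lower), of which 72 were shared with TMM, and 5055 genes past the adjusted p (37.8%). Scaling to the inferred total reads (all reads below) keeps the smaller share on genes in the values. It moved the median of all genes to -0.59 on the log2 scale and gave 997 DEGs (7.46%), with 9 higher (0.0673%) and 988 lower (7.39%). Of the 40 genes named below as higher, 17 had a negative log2 fold change on that scale and 19 were still higher past the adjusted p, whereas none of the 37 named as lower turned positive. Changes below are therefore relative to the level of most genes. On the scale of all reads the list medians were 1.52 for ribosomal RNA-derived loci, 0.24 for H/ACA snoRNAs, 0.0043 for C/D snoRNAs, 0.065 for vessel wall, -0.018 for Cajal body RNAs, -0.24 for nuclear-retained long noncoding RNAs and -0.34 for sinusoidal endothelium. A total that left out genes with over 1% of any library gave 91 DEGs, with 73 higher and 18 lower, and 3897 genes higher (29.1%) against 1697 lower (12.7%) at the adjusted p, so the even split rests on the scaling. With offsets for GC content and length, added after seeing the data, 13100 genes with both values were tested and gave 80 DEGs, with 71 higher and 9 lower, and 15.1% of genes higher against 10.6% lower at the adjusted p (median of all genes 0.032). A fit of all 48 mouse libraries with lane as a term gave 0.927% higher and 3.59% lower (median of all genes -0.0073), and 6 of its 92 DEGs were among the 78. Lane 1 held only FFPE libraries, so the FFPE term of that fit rests on the 2 FFPE libraries in lane 2. These are from PB mice 75C and 80B, and calls kept or lost with lane rest on them. Many, but not all, calls of single genes and lists below are set beside these 2 fits, each read against its own shares. Of the genes named below, 46 kept their sign but lost their call with lane, and 6 changed sign. With the offsets these counts were 14 and 4. A call given without a fit did not necessarily hold in it. Of the 78 DEGs, 17 were higher in all 12 mice, as were 5.17% of genes tested, and 3 were lower in all 12, as were 5.87%. Of the DEGs, 25 were below 1 CPM on average in both preparations. Groups did not overlap for 4 DEGs, all higher in FFPE. Over all genes tested, with no fold criterion, 0.329% were higher and 0.434% lower without overlap.

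**Figure D1:**
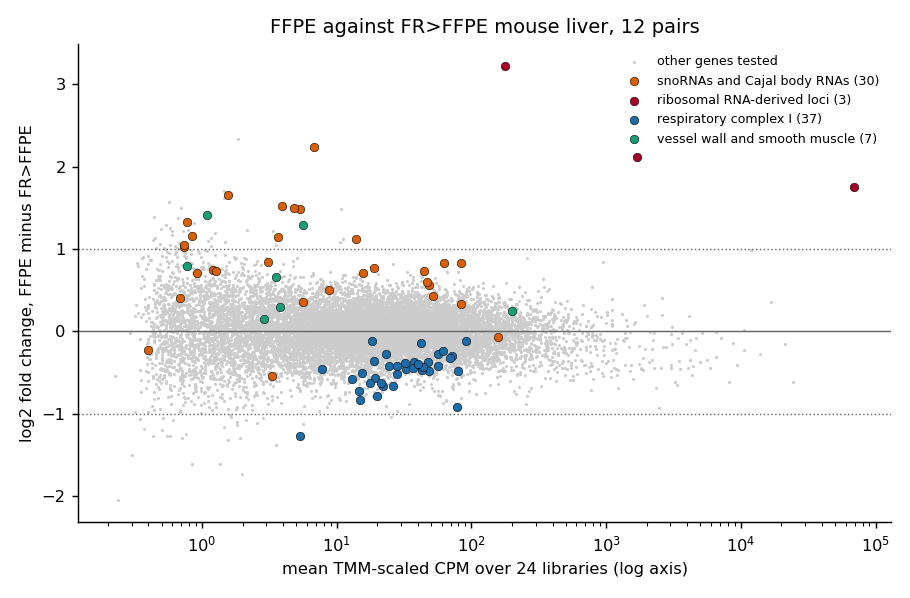
Each point is 1 gene of 13370, with its mean TMM-scaled CPM over 24 libraries on a log axis and its log2 fold change of FFPE over FR>FFPE, and the dotted lines mark 2-fold. The 3 ribosomal RNA-derived loci and most of the 30 snoRNAs and Cajal body RNAs lie above 0, while the 37 genes of respiratory complex I lie below 0.

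RNA classes, taken from RefSeq, held different shares of the calls. Among 29 snoRNAs tested, 22 (75.9%) passed the adjusted p as higher and 0 as lower, 12 were DEGs, and the median log2 fold change was 0.83. Both snRNAs and the 1 miRNA tested were higher too. Of 413 long noncoding RNAs, 67 (16.2%) were higher and 12 (2.91%) lower, with a median of 0.13. Protein-coding genes were split, with 2406 higher and 2583 lower of 12751 and 33 and 19 DEGs. Of 137 transcribed pseudogenes, 25 (18.2%) were higher and 23 (16.8%) lower. Over all genes tested 18.9% were higher and 19.6% lower. Protein-coding genes and pseudogenes were thus near the shares of all genes. Long noncoding RNAs were not called higher more often than all genes, and were called lower less often.

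Loci of ribosomal RNA rose. Rn45s, the entry for the precursor of ribosomal RNA, was at 83517 to 129845 CPM (median 104833) in FFPE and 20565 to 50346 CPM (median 31054) in FR>FFPE. All 12 FFPE libraries were above all 12 FR>FFPE libraries, and the highest FR>FFPE library was that of mouse 21C. Rn45s was 3.36-fold higher in FFPE (log2 fold change 1.75 ± 0.088 (SE), adjusted p = 2.4e-16). It took 8.13% to 12.8% (median 10.2%) of all counts in FFPE and 2.23% to 5.13% (median 3.13%) in FR>FFPE, a difference of 7.27 ± 1.77 points (SD, n = 12 pairs, two-sided exact permutation test, p = 0.000488, the smallest this design allows). Lars2, which encodes mitochondrial leucyl-tRNA synthetase and was listed with Rn45s as a locus thought to take up ribosomal RNA reads (which was not tested), was at 2148 to 3652 CPM (median 2727) in FFPE and 427 to 1025 CPM (median 615) in FR>FFPE. Its groups also did not overlap, with a 4.34-fold rise (log2 fold change 2.12 ± 0.079 (SE), adjusted p = 4.3e-20). Mir6236, an annotated miRNA hairpin with the largest fold change of all genes tested, was at 208 to 429 CPM (median 317) in FFPE and 23.1 to 61.3 CPM (median 31.2) in FR>FFPE. It was 9.35-fold higher without overlap (log2 fold change 3.22 ± 0.10 (SE), adjusted p = 6.8e-22). Reads of the Lars2 messenger or of a mature miRNA cannot be told apart from ribosomal RNA fragments in gene counts. These 3 loci were also called higher in the fit of 48 libraries that takes up the lane, with an adjusted p of 0.0046 for Rn45s, 0.0083 for Lars2 and 0.0014 for Mir6236.

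**Figure D2:**
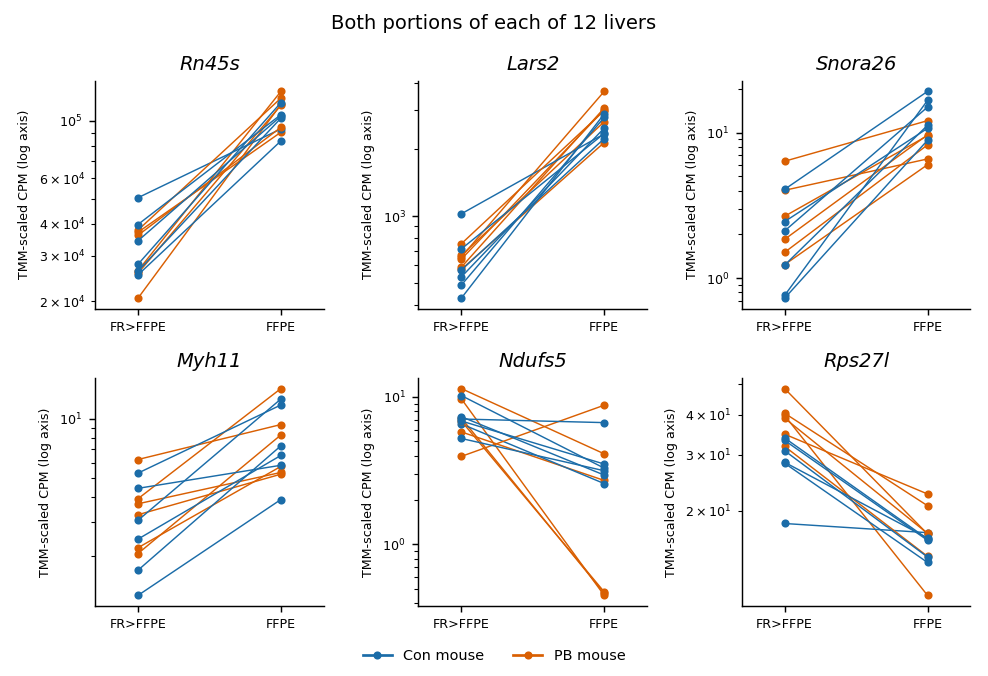
Each panel shows 1 gene in TMM-scaled CPM on a log axis, with a line joining both portions of each of 12 livers. Rn45s, Lars2, Snora26 and Myh11 were higher in FFPE in 12 of 12 mice, Rps27l was lower in 12 of 12, and Ndufs5 was lower in 11 of 12, with 3 FFPE libraries of PB mice at the bottom.

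Most H/ACA snoRNAs tested were higher in FFPE. Of 36 listed, 20 passed the filter on low counts, and 14 of these were higher and 0 lower at the adjusted p, where 18.9% of all genes were higher. Their median log2 fold change was 0.84 against 0.0034 over all genes, and the median over members was above 0 in each of the 12 mice (0.31 to 1.67). Snora26, which guides modification of large-subunit ribosomal RNA, was at 6.03 to 19.2 CPM (median 10.2) in FFPE and 0.729 to 6.36 CPM (median 1.98) in FR>FFPE. The groups overlapped only where the lowest FFPE library (mouse 20B) met the highest FR>FFPE library (mouse 20D). Each mouse was nevertheless higher in FFPE, by 4.72-fold on average (log2 fold change 2.24 ± 0.20 (SE), adjusted p = 9e-11). Snora64 was at 3.46 to 9.73 CPM (median 5.23) against 0.724 to 2.84 CPM (median 2.1), with no overlap (log2 fold change 1.52 ± 0.17 (SE), adjusted p = 1.2e-08). Snora16a (3.16-fold), Snora28 (2.83-fold), Snora21 (2.8-fold) and Snora70 (2.17-fold) were higher in 12 of 12 mice as well, with overlap between groups. These levels rest on few counts, such as 40 to 119 for Snora26 in FFPE and 6 to 69 in FR>FFPE. In the fit that takes up the lane, 1 of the 20 passed the adjusted p, Snora26 at a log2 fold change of 3.21 (adjusted p = 0.028), and the list's median was 0.83.

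Of 74 C/D snoRNAs listed, 8 passed the filter, with 7 higher and 0 lower. Their median log2 fold change was 0.60. Snord104 was at 1.27 to 7.42 CPM (median 5.48) in FFPE and 1.2 to 4.97 CPM (median 1.98) in FR>FFPE, and 1 mouse went the other way (log2 fold change 1.15 ± 0.20 (SE), adjusted p = 1.9e-05). Gm12238, a further snoRNA gene by its RefSeq class, was 3.08-fold higher (log2 fold change 1.62 ± 0.29 (SE), adjusted p = 2.6e-05), at a median of 1.82 CPM in FFPE. Snord17, the longest C/D member, did not pass the test, at 87.5 to 216 CPM (median 145) in FFPE and 62 to 254 CPM (median 162) in FR>FFPE (log2 fold change -0.07 ± 0.10 (SE), adjusted p = 0.63). Scarna6 and Scarna13, guide RNAs of Cajal bodies, the sites where spliceosomal RNAs are modified, were the only 2 of 9 listed that could be tested. Both were higher in 12 of 12 mice, with log2 fold changes of 0.60 ± 0.058 and 0.56 ± 0.049 (SE). With the lane in the fit the C/D median fell to 0.25 and 1 of 8 passed. Gm12238 (adjusted p = 0.17) and Scarna13 (adjusted p = 0.15) were not called in that fit.

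Host genes did not rise with the small RNAs that lie in them. A host was tested for 25 of the 30 snoRNAs and Cajal body RNAs, and the small RNA had the larger log2 fold change in 23 of these. The 22 distinct hosts had log2 fold changes of -0.84 to 0.072 (median -0.15), with 0 higher and 9 lower at the adjusted p. The difference between small RNA and host had a median of 1.00 and ran from -0.24 to 2.18. Rpl10, a ribosomal protein gene of the large subunit and the host of Snora70, was at 126 to 189.5 CPM (median 159.6) in FFPE and 163 to 225 CPM (median 195) in FR>FFPE. It was lower in 12 of 12 mice (log2 fold change -0.30 ± 0.041 (SE), adjusted p = 5.1e-07) while Snora70 was higher in 12 of 12. With GC and length offsets, an alternative added after seeing the data, Rpl10 turned to 0.14 (adjusted p = 0.0014). The largest fall of a host was that of Snhg1, the noncoding host of Snord22, at -0.84 ± 0.27 (SE, adjusted p = 0.012), while Snord22 itself was at 0.43 ± 0.081 (SE, adjusted p = 6e-05). Snhg1 rested on 1 to 13 counts in FFPE and was not called with lane (adjusted p = 0.86) or the offsets (adjusted p = 0.12). Snord22 was called with the offsets but not with lane (adjusted p = 0.83). A list of 16 tested snoRNA host genes, another set than the 22, turned from a median of -0.18 to 0.062 with the offsets. Snora44 ran the other way, with -0.54 ± 0.26 (SE, adjusted p = 0.1), below its host Snhg12. In these counts, reads of a mature snoRNA and of the unspliced intron that holds it cannot be told apart.

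**Figure D3:**
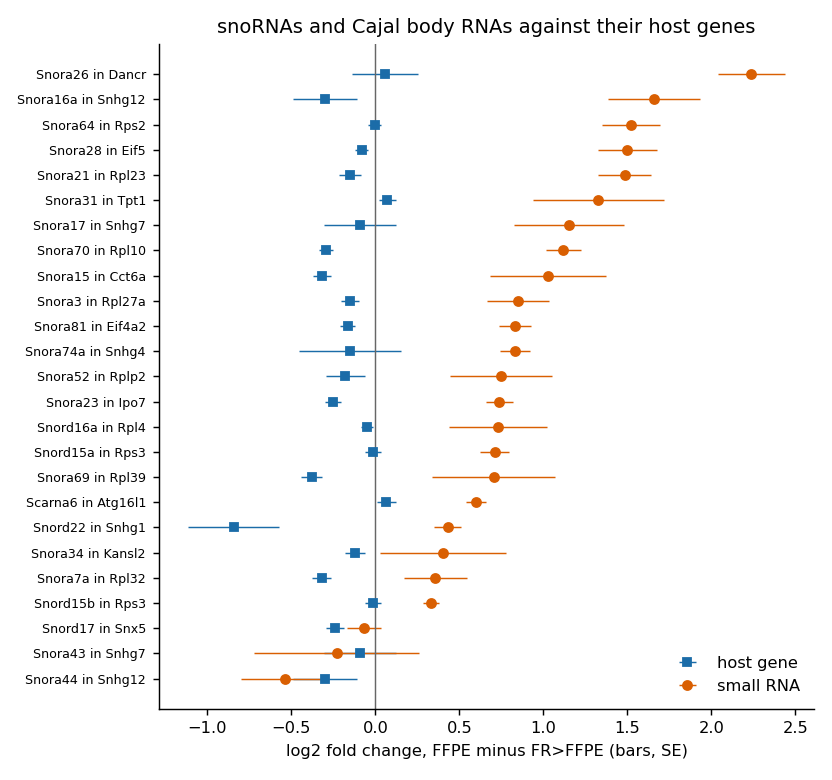
Points give the log2 fold change of FFPE over FR>FFPE for 25 small RNAs (circles) and their host genes (squares), with bars of 1 SE over 12 pairs. In 23 of the 25 rows the small RNA lies to the right of its host, and the hosts lie between -0.84 and 0.072.

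Nuclear-retained long noncoding RNAs and small structured RNAs were the other noncoding groups examined. Of 10 nuclear-retained long noncoding RNAs listed, 8 were tested, with 6 higher and 0 lower and a median of 0.36. Malat1, an RNA of nuclear speckles, was at 15969.7 to 22210.3 CPM (median 19255) in FFPE and 12867 to 17079 CPM (median 14832) in FR>FFPE. It was higher in 12 of 12 mice, with overlap between groups (log2 fold change 0.36 ± 0.045 (SE), adjusted p = 8.3e-08). Meg3, an imprinted RNA, varied widely among mice, at 4.04 to 29.2 CPM (median 11.6) in FFPE and 1.22 to 16.6 CPM (median 5.06) in FR>FFPE. Within a mouse it was always higher in FFPE (log2 fold change 1.12 ± 0.11 (SE), adjusted p = 9e-10), and Rian from the same imprinted cluster was at 0.64 ± 0.16 (SE, adjusted p = 0.0014). Among small structured housekeeping RNAs, 8 of 12 were tested, with 4 higher and 2 lower. Rnu11 and Rnu12, RNAs of the minor spliceosome, were both higher, at 1.70 ± 0.25 and 0.69 ± 0.091 (SE). The fit with lane called 0 of the 8 long noncoding RNAs, at a median of 0.37. It called neither Rnu11 (adjusted p = 0.40) nor Rnu12 (adjusted p = 0.61).

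Smooth muscle genes made up part of the protein-coding rises. Of 8 markers of vessel wall and smooth muscle, 7 were tested, with 4 higher and 0 lower and a median of 0.66. Myh11, the myosin heavy chain of smooth muscle, was at 3.89 to 14.2 CPM (median 6.91) in FFPE and 1.27 to 6.21 CPM (median 3.15) in FR>FFPE. The groups overlapped, but every mouse was higher in FFPE (log2 fold change 1.29 ± 0.16 (SE), adjusted p = 4.7e-08). Synpo2, an actin-binding protein of muscle, was 2.67-fold higher (log2 fold change 1.41 ± 0.31 (SE), adjusted p = 0.00043), and Mylk, the myosin light chain kinase, was at 0.24 ± 0.038 (SE, adjusted p = 5.3e-06). Sfrp1, a secreted inhibitor of Wnt ligands, had the second largest fold change of all DEGs, at 0.789 to 9.35 CPM (median 2.05) in FFPE and 0 to 1.99 CPM (median 0.41) in FR>FFPE. It was 5.06-fold higher (log2 fold change 2.34 ± 0.34 (SE), adjusted p = 1.3e-06), from 4 to 59 counts in FFPE and 0 to 21 in FR>FFPE. The median of the vessel list over its members was above 0 in 12 of 12 mice and ran from 0.22 to 1.97, with mouse 20B highest. With GC and length offsets Mylk fell to 0.020 (adjusted p = 0.72). The summed level of these markers was 213 to 279 CPM in FFPE and 176 to 241 CPM in FR>FFPE. With the lane in the fit, 0 of 7 were called, the median was 0.13, and Sfrp1 was not called (adjusted p = 0.16). Which piece of a lobe entered each block was not given in the sources used here, and its part in these values was not tested.

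Cell type markers of the sinusoids moved in different directions. Of 10 sinusoidal endothelial markers, 7 were higher and 0 lower (median 0.25), with Gpr182, a receptor of endothelium, at 0.59 ± 0.093, Dnase1l3, a secreted nuclease, at 0.45 ± 0.077, and the scavenger receptor Stab2 at 0.21 ± 0.036 (SE). With the lane in the fit 0 of the 10 were called, at a median of 0.66, and with GC and length offsets 5 were higher, while Stab2 fell to 0.029 (adjusted p = 0.60). Of 10 Kupffer cell markers, 0 were higher and 9 lower (median -0.31), and the list's median was below 0 in 12 of 12 mice. Clec4f, a lectin that marks Kupffer cells in rodents, was at 45.2 to 105 CPM (median 63.9) in FFPE and 69.5 to 128 CPM (median 81.7) in FR>FFPE (log2 fold change -0.41 ± 0.046 (SE), adjusted p = 1.1e-08). All 12 mice were lower in FFPE, with overlap between groups. The scavenger receptor Marco was at -0.77 ± 0.22 (SE, adjusted p = 0.0044) and Cd5l, a secreted macrophage protein, at -0.13 ± 0.043 (SE, adjusted p = 0.013). When the lane was taken up, no Kupffer marker was called and the median was 0.070. Without the mouse block 2 of the 10 were lower, where 13.7% of all genes were lower in that fit. Of 9 stellate and fibroblast markers 1 was higher (Col1a1, 0.47) and 4 lower (Dcn lowest, -0.63), with none called in the fit with lane and Col1a1 not called with the offsets (0.15, adjusted p = 0.37). Of 5 cholangiocyte markers Krt7 was higher at 1.13 ± 0.44 (SE), on at most 7 counts in a library, and Spp1 lower at -0.68 ± 0.09 (SE), and neither was called with lane. Red cell genes were lower in 4 of 6 tested, with Hba-a2 at -0.81 and Hbb-bs at -0.78, while Alas2, the erythroid enzyme of haem synthesis, was at -0.025 (adjusted p = 0.67). Mice differed over a range of -1.82 to 0.42 in the red cell median, and with the lane in the fit it was 0.091.

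**Figure D4:**
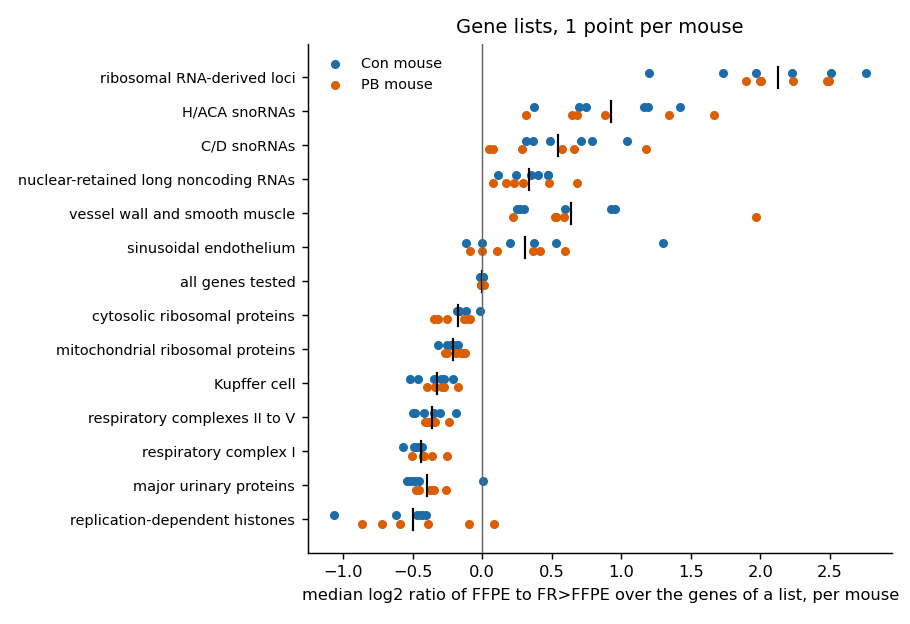
Each point is the median log2 ratio of FFPE to FR>FFPE over the genes of a list in 1 mouse, with vertical bars at the mean over 12 mice. Ribosomal RNA-derived loci and both snoRNA classes lie above 0 in all 12 mice, respiratory complexes and ribosomal protein lists lie below 0 in all 12, and all genes tested sit near 0.

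Genes of respiratory complex I were lower in FFPE with 1 exception at the adjusted p. All 37 nuclear genes of complex I, which passes electrons from NADH to ubiquinone, were tested, and 36 were lower and 0 higher, where 19.6% of all genes were lower. Their median log2 fold change was -0.45, and 24 of them were lower in every mouse. The list's median was -0.57 to -0.25 over the 12 mice. Ndufa4, listed with complex I and since assigned to cytochrome oxidase, was at 44.2 to 67.6 CPM (median 52.2) in FFPE and 76.3 to 119 CPM (median 106) in FR>FFPE. The groups did not overlap (log2 fold change -0.92 ± 0.047 (SE), adjusted p = 3.6e-16). Ndufs5 had the largest fall, at 0.45 to 8.79 CPM (median 3.05) in FFPE and 3.95 to 11.4 CPM (median 6.98) in FR>FFPE (log2 fold change -1.27 ± 0.26 (SE), adjusted p = 0.00016). Its FFPE libraries of mice 18B, 20D and 75C were at 0.45 to 0.48 CPM, far below the other 9, and mouse 80B went the other way. In the fit with lane, whose FFPE term rests on mice 75C and 80B, Ndufs5 was at 0.18 (adjusted p = 0.94). With the lane in the fit 16 of the 37 were lower, at a median of -0.59, where 3.59% of all genes were lower. With offsets for GC content and length 24 were lower and 0 higher, at a median of -0.23, where 10.6% of all genes were lower.

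Complexes II to V, which carry electrons on to oxygen and make ATP, were less uniform, with 33 lower and 2 higher of 46 tested (median -0.38). Atp5k, a small subunit of ATP synthase, was at 11.6 to 26.7 CPM (median 19.7) in FFPE and 27.3 to 45.4 CPM (median 38.2) in FR>FFPE. There was no overlap (log2 fold change -0.96 ± 0.066 (SE), adjusted p = 3.1e-13), and the fall was called with the lane in the fit (-1.20, adjusted p = 0.0023). Cox7c, a small subunit of cytochrome oxidase, was a DEG at -1.12 ± 0.23 (SE, adjusted p = 0.00014), on 2 to 43 counts in FFPE. It was not called with lane (adjusted p = 0.27) or with the offsets (-0.38, adjusted p = 0.18). Atp5b, the catalytic subunit of ATP synthase, fell less (log2 fold change -0.28 ± 0.035 (SE), adjusted p = 8.7e-08). Atp5sl, listed by its symbol and not checked as a subunit of these complexes, was higher (log2 fold change 0.31 ± 0.068 (SE), adjusted p = 0.00038). It was not called with lane (adjusted p = 0.34). Genes encoded by mitochondrial DNA were not in the table used here.

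Ribosomal protein genes were lower as well, by less. Of 85 cytosolic ribosomal protein genes tested, 48 were lower and 6 higher (median -0.17), and of 75 mitochondrial ones 44 were lower and 2 higher (median -0.24). Rps27l, a paralog of a small-subunit protein, was at 10.9 to 22.6 CPM (median 16.4) in FFPE and 18.3 to 48.2 CPM (median 33.5) in FR>FFPE. It was lower in 12 of 12 mice, and the groups overlapped only through the FR>FFPE library of mouse 21C (log2 fold change -1.03 ± 0.088 (SE), adjusted p = 3.8e-11). Rps29, a small-subunit protein, was at 17.1 to 30 CPM (median 24.8) in FFPE and 33.5 to 58.5 CPM (median 44.3) in FR>FFPE, without overlap (log2 fold change -0.88 ± 0.074 (SE), adjusted p = 2.7e-11). With the lane in the fit Rps29 was not called (adjusted p = 0.10). Rpl41, of the large subunit, rose (log2 fold change 0.33 ± 0.045 (SE), adjusted p = 5.2e-07), and Rpl4 was at -0.049 (adjusted p = 0.29). Of the mitochondrial ribosome, Mrpl22 was at -0.55 and Mrpl12 at 0.20, both past the adjusted p. Neither was called with lane, and with the offsets Mrpl22 was at -0.12 (adjusted p = 0.51). The direction of the cytosolic list changed between fits. With the GC and length offsets 26 of the 85 were higher and 12 lower, at a median of 0.042 beside 0.032 for all genes, and with the lane in the fit 2 were higher and 3 lower, at -0.16. Initiation factors were split, 8 higher and 19 lower of 54, and Eif4ebp2, a repressor of cap-dependent initiation, was 1.5-fold higher without overlap (log2 fold change 0.59 ± 0.04 (SE), adjusted p = 2.2e-13). With the offsets the median of the initiation factors turned from -0.077 to 0.021, beside 0.032 for all genes.

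Several further groups were lower by small amounts. Replication-dependent histone genes, whose messengers end in a stem-loop in place of a poly(A) tail, were lower in 18 and higher in 0 of 47 tested (median -0.50), with Hist1h4f at -1.07 ± 0.28 and Hist1h3f at -0.89 ± 0.28 (SE). None of the 47 was called with lane, and with the offsets 8 were lower and 1 higher. Major urinary protein genes, a family of near-identical copies that bind pheromones, were lower in 17 and higher in 2 of 20 tested (median -0.43). Mup7 was at 4899 to 8095 CPM (median 6227) in FFPE and 7468 to 13874 CPM (median 9768) in FR>FFPE, lower in 12 of 12 mice (log2 fold change -0.62 ± 0.038 (SE), adjusted p = 3.5e-14), and Mup2 was at -0.71. Mup10 was higher in 11 of 12 (log2 fold change 0.84 ± 0.084 (SE), adjusted p = 1.1e-09) but not called with lane (adjusted p = 0.45). Estimated counts can move between such copies, so single members are uncertain, and with GC and length offsets the list turned to 12 higher and 3 lower (median 0.12). H2-Q5 (1.49) and H2-Q8 (-1.32), close paralogs of the major histocompatibility complex that were chosen after their values were seen, moved in opposite directions with the same uncertainty. The gene 1810022K09Rik, of which no function is given here, was 1 of the 2 falls named by rule, at 0.584 to 3.63 CPM (median 1.88) in FFPE and 3.28 to 6.55 CPM (median 5.11) in FR>FFPE (log2 fold change -1.38 ± 0.19 (SE), adjusted p = 3.6e-07). Its groups overlapped slightly, and every mouse was lower. With the lane in the fit 1810022K09Rik was not called (adjusted p = 0.083).

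Among secreted hepatocyte products, Alb was at 11320.1 to 27186 CPM (median 18517) in FFPE and 17815 to 46356 CPM (median 30644) in FR>FFPE. It was lower in 12 of 12 mice (log2 fold change -0.61 ± 0.043 (SE), adjusted p = 4.3e-13). Apoa1, the main protein of high-density lipoprotein, was at -0.45 ± 0.05 (SE), and fibrinogen chains Fga and Fgg were at -0.32 ± 0.039 and -0.66 ± 0.042 (SE). Hnf4a, a transcription factor that keeps hepatocyte identity, was higher in 12 of 12 mice (log2 fold change 0.27 ± 0.034 (SE), adjusted p = 8.6e-08) but not called with lane (adjusted p = 0.19). Of 7 hepatocyte markers 4 were lower and 1 higher (median -0.28). Pericentral genes were lower in 5 and higher in 2 of 11, and periportal genes lower in 6 and higher in 2 of 12. Acute phase genes were lower in 9 and higher in 1 of 18, and with GC and length offsets in 7 and 4. Over all genes 19.6% were lower and 18.9% higher, and with the offsets 10.6% were lower and 15.1% higher. The counts of pericentral and periportal genes called higher are near the share of all genes.

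Lists of stress genes showed mixed and small changes. Of 18 immediate early genes tested, 5 were higher and 1 lower, with Zfp36, which destabilizes messengers, at 41.3 to 93.2 CPM (median 61.4) in FFPE and 24.8 to 71.7 CPM (median 51.7) in FR>FFPE. It was higher in 12 of 12 mice, with overlap (log2 fold change 0.42 ± 0.063 (SE), adjusted p = 2.4e-06). The phosphatase gene Dusp1 was at 0.28 ± 0.068 and Klf6 at -0.23 ± 0.088 (SE). Neither was called with lane, and Klf6 was not called with the offsets. Among heat shock genes 0 were higher and 7 lower of 13 (median -0.12). The unfolded protein and amino acid stress list was split, 6 higher and 5 lower of 15. Atf5, a transcription factor of the amino acid and mitochondrial stress response, rose, at 234 to 433 CPM (median 337) in FFPE and 140.2 to 226 CPM (median 178) in FR>FFPE. The groups did not overlap (log2 fold change 0.89 ± 0.045 (SE), adjusted p = 2.4e-16), and the fit with lane gave 1.04 (adjusted p = 0.00012). Ppp1r15a, which reverses translation arrest, was at 0.49 ± 0.10 (SE, adjusted p = 0.00014). Hspa5, the main chaperone of the endoplasmic reticulum, was lower in 12 of 12 mice (log2 fold change -0.43 ± 0.037 (SE), adjusted p = 3.8e-11), and the hormone gene Fgf21 was at -0.77 ± 0.23 (SE). Neither Ppp1r15a nor Fgf21 was called with lane, and Fgf21 was not called with the offsets. Of 12 p53 targets 3 were higher and 2 lower, and of 13 Nrf2 targets 0 higher and 4 lower, where 18.9% of all genes were higher and 19.6% lower.

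Of 10 genes that metabolize formaldehyde or repair its crosslinks, 1 was higher and 6 were lower, with a median of -0.19. Adh5, the dehydrogenase that oxidizes the adduct of formaldehyde with glutathione, was at 125 to 166 CPM (median 142) in FFPE and 160.4 to 212 CPM (median 204) in FR>FFPE (log2 fold change -0.48 ± 0.038 (SE), adjusted p = 6.5e-12). Esd, which releases formate from the product, was at 54.9 to 91.1 CPM (median 65.4) against 82.4 to 115 CPM (median 97.8) (log2 fold change -0.55 ± 0.045 (SE), adjusted p = 1.1e-11). Both were lower in 12 of 12 mice and overlapped little, and both were called with the lane in the fit (-0.59, adjusted p = 0.0018, and -0.94, adjusted p = 6.9e-05). Slx4, a scaffold of nucleases that repair crosslinks, was the higher one (log2 fold change 0.29 ± 0.10 (SE), adjusted p = 0.024), and it was not called with lane (adjusted p = 0.75) or with the offsets (0.11, adjusted p = 0.48).

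Base composition moved with the difference between preparations. Protein-coding genes were set in 8 bins by the GC content of their longest transcript. The median log2 fold change rose from -0.21 in the lowest bin (GC 31.0% to 42.0%) to 0.21 in the highest (GC up to 68.7%). In the lowest bin 1.72% of genes were higher and 48.2% lower, and in the highest 39.6% were higher and 5.28% lower. Over 12563 genes, which are not independent replicates, Spearman's rho between GC content and fold change was 0.48. Within single mice it was -0.11 to 0.50 (median 0.29), and the only mouse in which the highest bin lay below the lowest was 21C, whose FR>FFPE library had the lowest total. Transcript length went with the fold change less closely, from a median of -0.16 in the shortest bin to 0.076 in the longest (rho 0.24). The median GC content of the complex I list was 51.3% and that of the major urinary protein list 41.9%. Their median transcript lengths were 1046 and 927 bases, and that of the cytosolic ribosomal protein list was 1059 bases. These lengths lie in the shortest bin (216 to 1625 bases), where 7.0% of genes were higher and 35.7% lower. The complex I list had a median log2 fold change of -0.45, beside -0.16 in that bin. With offsets for GC content and length, 3357 of the 13100 genes that had both values passed the adjusted p, where 5155 of 13370 had passed without, with 1972 higher and 1385 lower. Of these 3357, 2355 had been called in the same direction without the offsets. Why composition went with preparation was not tested.

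**Figure D5:**
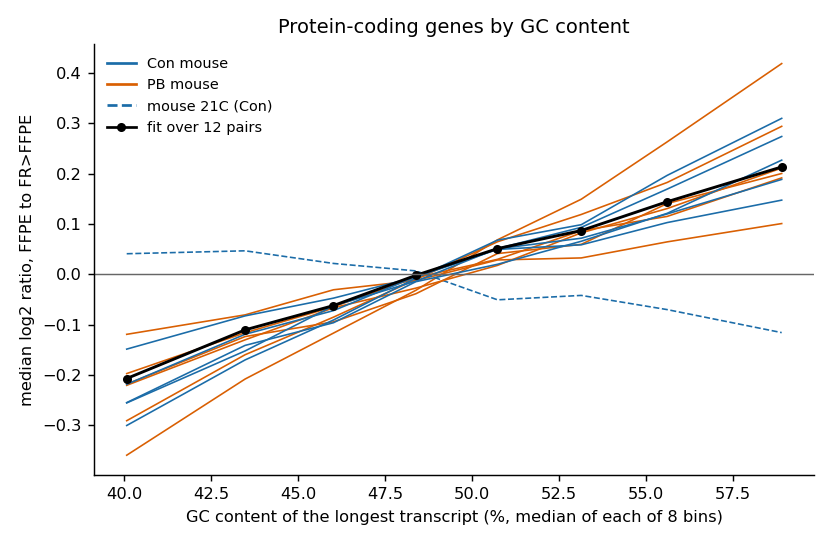
Lines give the median log2 ratio of FFPE to FR>FFPE in 8 bins of protein-coding genes by GC content (%), 1 thin line per mouse and a thick line for the fit over 12 pairs. The fit rises from -0.21 to 0.21, and the dashed line of mouse 21C falls from 0.041 to -0.12.

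Con and PB mice were compared for the size of the difference between preparations. All 78 DEGs had the same sign in both treatments, which their choice on the pooled mice largely fixes. Contrasts within each treatment gave 83 DEGs in Con (0.621% of genes tested) and 76 in PB (0.568%), and 22 of the 78 were DEGs in both. The interaction of preparation with PB passed the adjusted p for 0 of 13370 genes in edgeR, with 770 (5.76%) at an unadjusted p under 0.05, and for 3 genes in DESeq2. The lowest adjusted p was that of Apom, a lipocalin of lipoproteins, at -0.58 in Con and -0.13 in PB (adjusted p = 0.268 for the difference). Ube2d3 was at -0.13 and -0.51, Det1 at -0.20 and 0.69, and Gstp2 at -0.12 and -0.64, in Con and PB in turn (each adjusted p = 0.583 for the difference). Snora26 was at 2.92 in Con and 1.64 in PB, with the same adjusted p of 0.583. Cyp3a11, a P450 that PB induces, was lower in 12 of 12 mice (log2 fold change -0.68 ± 0.05 (SE), adjusted p = 1.1e-12), at -0.88 in Con and -0.55 in PB. Cyp2b10, the P450 that reports PB exposure and the check of the treatment labels, was at most 1.17 CPM in Con libraries. In PB mice it was at 1107 to 1782 CPM (median 1347) in FFPE and 993 to 1815 CPM (median 1430) in FR>FFPE, and the groups of PB mice overlapped in full (log2 fold change -0.052 ± 0.058 (SE), adjusted p = 0.52 over all mice). Of 16 PB target genes tested 8 were lower and 0 higher, including Cyp2c54 (-0.50).

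Other portions of the same livers had been kept frozen (FR) or fixed in ethanol after freezing (FR>OH), and their levels are set beside those of both formalin preparations. FR was extracted with another reagent, so a difference from it also holds the extraction. Rn45s had medians of 6927 CPM in FR, 49041 CPM in FR>OH, 29026 CPM in FR>FFPE and 98033 CPM in FFPE, scaled over all 48 libraries. Lars2 medians were 95.1 CPM in FR, 592 CPM in FR>OH, 573 CPM in FR>FFPE and 2537 CPM in FFPE, so both loci were lowest in FR and highest in FFPE. Snora26 was at 1.41 CPM in FR, 1.87 CPM in FR>OH, 1.85 CPM in FR>FFPE and 9.5 CPM in FFPE, with the first 3 within 1 CPM of each other. Myh11 was at 2.76 CPM in FR, 2.75 CPM in FR>OH, 2.93 CPM in FR>FFPE and 6.46 CPM in FFPE, again with FFPE alone apart. For Ndufs5 the order was reversed, at 14.3 CPM in FR, 6.69 CPM in FR>OH, 6.49 CPM in FR>FFPE and 2.85 CPM in FFPE, and for Rps27l too, at 53.4 CPM in FR, 30.9 CPM in FR>OH, 31.2 CPM in FR>FFPE and 15.3 CPM in FFPE. Of the 54 DEGs higher in FFPE, the FR median was below both formalin preparations in 34, between them in 20 and above both in 0. Of the 24 lower, it was above both in 17, between in 6 and below both in 1. The ethanol-fixed portions were nearer to FR>FFPE than to FFPE for 71 of the 78 DEGs. These placements of FR and FR>OH were counted for the DEGs only. Whether they differ from the placements over all genes was not tested. Since the DEGs were chosen on the FFPE and FR>FFPE libraries, the place of those 2 preparations relative to each other is fixed by that choice.

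Rat liver offered the same preparations in another species, with 6 libraries of each preparation and with TempO-Seq, an assay that counts ligated probe pairs for a panel of genes. All of these rat libraries were labelled vehicle control, whereas the mouse values also include PB mice. The rat FFPE libraries held 139477 to 889125 counts and the FR>FFPE libraries 2156621 to 3898086. The labels name no animals, so whether portions share a rat is not known here, and the libraries were tested without pairing. Of 2144 genes tested by edgeR with TMM scaling, 471 were DEGs higher in FFPE (22%) and 233 lower (10.9%), 49% passed the adjusted p (26.9% higher and 22.1% lower), and total scaling gave 988 higher and 30 lower. Over 1675 symbols shared with mouse, 59.9% had the same sign in both species. Myh11 rose in rat as well (log2 fold change 2.23 ± 0.64 (SE), adjusted p = 0.0074), at 6.02 to 24.6 CPM in FFPE and 0 to 5.37 CPM in FR>FFPE. Atf5 rose (log2 fold change 1.95 ± 0.24 (SE), adjusted p = 4.6e-06), at 481 to 871 CPM in FFPE and 98.3 to 221 CPM in FR>FFPE, and in both genes the rat groups did not overlap. Alb was lower (log2 fold change -1.59 ± 0.29 (SE), adjusted p = 0.00019). Rps27l went the other way, higher in rat FFPE (log2 fold change 1.51 ± 0.19 (SE), adjusted p = 5.2e-06), as did Spp1 (log2 fold change 2.61 ± 0.66 (SE), adjusted p = 0.003), and Hnf4a was lower (log2 fold change -0.67 ± 0.22 (SE), adjusted p = 0.015). Of the 78 mouse DEGs 5 were tested in rat and 2 of these had the same sign. Symbols were matched by name, and orthology was not checked.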

How the data were processed

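Mouse liver RNA (stranded total RNA libraries, ribosomal RNA removed with Ribo-Zero Gold) was sequenced by the authors, who used CASAVA 1.8.2, STAR 2.5.3a on GRCm38 (mm10) and Partek, as their processing notes and methods state, and deposited estimated counts per gene symbol of RefSeq transcripts. They also deposited log2 CPM values, used in the limma alternative and to infer total reads. The total reads of a library were inferred from its estimated counts and log2 CPM values together, not counted from read files. The share of reads on genes and the scaling to all reads rest on these inferred totals. Whether the totals hold every sequenced read, or only those left after trimming or alignment, was not checked. Per the labels, fixed samples were fragmented for less time than frozen ones. Rat liver estimated counts from TempO-Seq were deposited too, and how probes were counted is not given in the sources used here. Rat lung and AML12 files were not used. Samples took their group from the preservation and treatment labels, and their mouse and lane from the title.

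Estimated counts were rounded. Of 24543 genes, 13370 had a geometric mean over 1 count (offset 0.0001) over 48 mouse libraries. edgeR 4.0.16 in R 4.3.3 was fitted with mouse and preparation on 24 libraries, TMM scaling, quasi-likelihood tests and Benjamini-Hochberg adjustment. SE is the log2 fold change over the square root of F. Same-numbered portions come from the same mouse, and deviations from group means over 8127 genes correlated by 0.525 to 0.718 within mice (12 of 12 over 0.1) and by a median of -0.126 between mice. Mice are separate animals, 1 library each, and no library pair was a duplicate (the closest pair of replicates had a chi-square of 6.65 per degree of freedom). Rat liver used edgeR's own filter. Shares used exact permutation tests (scipy 1.17.1, Python 3.11.15). Transcript length, GC content and positions came from GENCODE M21, by symbol, and figures from matplotlib 3.10.9. Alternatives used limma 3.58.1, DESeq2 1.42.0, other scalings, filters and libraries. The scripts were tested on simulated data. At the smallest total of 4952796 counts, 1 CPM is about 5 counts, so genes near 1 CPM are imprecise.

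The comparison, the gene lists and the alternatives were chosen with earlier results of these data known, and lists were given no set test. Named genes were the 10 largest rises and falls among DEGs with at least 1 CPM and the same direction in 12 mice (17 rises and 2 falls qualified), in each list the 2 largest rises and falls past the adjusted p and the member with the highest CPM, the 5 lowest interaction p values, and Cyp2b10. Others were chosen after their values were seen: Snora21, Snora70, Snord22, Snora44 and Rpl10 as snoRNAs or hosts, and H2-Q5 and H2-Q8. Some genes that the rule names, and some sequences, are not reported here.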

Additional observations from a re-analysis of the deposited data

Results flagged for a closer look

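Among 110 groups of 6 mice that were screened, 9 had 1 mouse far from the other 5, and chance alone gives about 1 in 20 groups. Mouse 21C accounted for 5 of the 9. Its FR>FFPE library had a total of 5534970 counts, where the other 5 Con mice had 8812950 to 10681800. Its log2 ratio of FFPE to FR>FFPE was -0.095 for Rps27l, where the others were at -1.10 to -0.78. Over gene lists its median ratio was -0.61 for small structured housekeeping RNAs (others 0.29 to 0.58), -1.06 for replication-dependent histones (others -0.62 to -0.40) and 0.0056 for major urinary proteins (others -0.54 to -0.45). That FR>FFPE library had 31.7% of its reads on genes and 5.13% of its counts on Rn45s, the lowest and the highest of its preparation. Whether the library or the tissue differed was not tested.

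The other 4 values came from 3 mice. Mouse 20B had a vessel wall and smooth muscle median of 1.97 (other PB mice 0.22 to 0.58) and a Cajal body RNA median of 0.33 (others 0.58 to 0.70). Mouse 18D had a log2 ratio of 4.08 for Snora16a (others 0.72 to 1.76), a gene with 2 to 14 counts in FR>FFPE. Mouse 82B had a cytosolic ribosomal protein median of -0.018 (other Con mice -0.18 to -0.12).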

How the results depend on the processing

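Without the replicate block by mouse, 65 DEGs and 3564 genes past the adjusted p were found, and 0 interactions. Leaving out 1 mouse gave 71 to 94 DEGs and 4721 to 5525 genes past the adjusted p, and 0 to 0 interactions. Of the 78 DEGs, 45 stayed DEGs in all 12 of those fits and 0 changed sign. Leaving out 1 rat gave 636 to 778 DEGs in rat liver. Scaling to total reads moved the median of all genes by -0.59 and gave 997 DEGs and 11360 genes past the adjusted p, and limma on the authors' log2 CPM 1097 and 11071. edgeR's own filter left 45 DEGs of 12343 genes tested. DEGs called in Con and PB mice separately were 22, and DESeq2 found 3 interactions (Cyp3a11, Pzp and Ube2d3, adjusted p = 0.0362).

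The fit of 48 libraries with lane, whose SEs had a median of 3.22 times those of the paired fit, gave 604 genes past the adjusted p (124 higher and 480 lower) and 92 DEGs (33 higher and 59 lower), of which 6 were among the 78, and 68 of the 78 had the same sign. It reversed Snord17 (0.0056), Cd5l (0.11), Hba-a2 (0.016), Hbb-bs (0.16), Ndufs5 (0.18) and H2-Q8 (0.34), none past the adjusted p. Its FFPE term rests on the 2 FFPE libraries in lane 2, because lane 1 held only FFPE libraries. GC and length offsets gave 3357 genes of 13100 tested and reversed Snord17 (0.34), Rpl10 (0.14), Rpl4 (0.16) and Cyp2b10 (0.027), the first 3 past the adjusted p. A total without genes over 1% reversed Snord17 (0.015), Alas2 (0.057), Rpl4 (0.034) and Cyp2b10 (0.022). The cause of these changes was not tested. The offsets, and the fit without the FFPE libraries of lane 2 (72 DEGs), were chosen after seeing the data.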

Other observations

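Circadian clock genes, which had no place among the comparisons above, were higher in 6 and lower in 1 of 16 tested, with a median of 0.11. Their median over members was above 0 in 9 of 12 mice. Hypoxia targets were higher in 2 and lower in 3 of 10, and over all genes 18.9% were higher and 19.6% lower. Of 2 lymphocyte markers tested of 7 listed, both were lower, at a summed level of 9.66 to 31.9 CPM in FFPE and 12.6 to 29.0 CPM in FR>FFPE. Of 2 fat markers tested of 5 and 1 mesothelial marker tested of 4, 0 passed the adjusted p, and metallothioneins were lower in 1 of 2.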
